A study of Mus musculus with 4 samples.

Results

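Bidirectional gene promoter peaks were regions of open chromatin that covered the starts of 2 protein-coding genes transcribed away from each other. They were found on the autosomes as ATAC-seq peaks that overlapped both starts of a head-to-head pair in the GENCODE M21 annotation, with a minus-strand gene to the left, a plus-strand gene to the right and at most 1 kb between the starts. The rule used gene positions and no accessibility value. It gave 678 of the 124498 autosomal peaks and of the 128055 peaks in the whole table. The comparison group was the one-gene promoter peaks, 10409 autosomal peaks that overlapped exactly 1 protein-coding gene start with no other such start within 1 kb. From these, 678 were matched one to one to the bidirectional peaks on mean value over all 4 libraries and on peak width.

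A bidirectional promoter serves a pair of genes from a single nucleosome-depleted stretch, often rich in CpG, where transcription starts in both directions from neighbouring start sites. Such pairs are common in mammals and are known to be frequent among genes for DNA repair, mitochondrial and other housekeeping functions. ATAC-seq measures how easily the Tn5 transposase inserts adapters into chromatin, so a bidirectional promoter gives 1 peak whose value cannot be divided between its genes.

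The study cultured mesenchymal stem cells (MSCs) from the hind limb bones of C57BL/6N mice aged 3-5 months, sorted as CD45-, TER-119-, Sca-1+ and CD140a+, and compared 2 libraries of cells kept in hypoxia (2% O2) with 2 of cells shifted to normoxia (21% O2) for a week after the sort. No allele or drug differed between the groups, and all cells had first been grown in hypoxia. The labels do not say how the libraries relate to single mice, so p-values measure only the spread between these libraries. Peaks covered the starts of the marker genes Pdgfra, Ly6a, Eng, Thy1, Nt5e and Cd44, although that at Ly6a (Sca-1) was weak, with values of 13.1 and 12.2 in hypoxia against 3.37 and 1.67 in normoxia. No peak lay over the starts of the blood cell genes Ptprc, Itgam, Cd3e and Spi1, the endothelial genes Pecam1 and Cdh5 or the red cell gene Klf1.

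The deposited values were reads per peak scaled to 10000000 of the library total, not divided by width, and reads were recovered from them as whole numbers. Totals per library came to 28259470 and 29413803 in hypoxia against 26680936 and 29965523 in normoxia. A bidirectional peak held a median of 426 and 465 reads in hypoxia and 217 and 284.5 in normoxia, and never fewer than 18, so the weakest members were measured much less precisely than the rest.

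The sequences of 6 pairs are shown because they hold the range of promoter types met below, from GC-rich stretches with SP sites to a GC-poor histone promoter with repeated CCAAT boxes. Each run holds the bases strictly between the annotated starts, on the plus strand from 5′ to 3′ of GRCm38 (mm10), outside both annotated genes. The minus-strand gene is named first and lies to the left. Capitals mark matches on either strand to a motif from the list given with the sequence comparison.
Brca1/Nbr1, chr11:101551956-101552148: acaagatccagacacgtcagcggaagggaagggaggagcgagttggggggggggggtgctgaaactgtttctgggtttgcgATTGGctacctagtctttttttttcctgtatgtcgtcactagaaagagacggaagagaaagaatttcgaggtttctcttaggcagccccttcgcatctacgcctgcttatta
Mrps12/Sars2, chr7:28741821-28741991: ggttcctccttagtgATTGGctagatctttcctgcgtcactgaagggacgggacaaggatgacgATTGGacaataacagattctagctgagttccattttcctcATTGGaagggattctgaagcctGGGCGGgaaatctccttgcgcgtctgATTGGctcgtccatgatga
Ostf1/Nmrk1, chr19:18631824-18631949: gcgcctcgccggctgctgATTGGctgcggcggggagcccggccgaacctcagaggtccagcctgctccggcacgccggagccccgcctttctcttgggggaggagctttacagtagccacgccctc
Hist1h2bl/Hist1h2ai, chr13:21716144-21716421: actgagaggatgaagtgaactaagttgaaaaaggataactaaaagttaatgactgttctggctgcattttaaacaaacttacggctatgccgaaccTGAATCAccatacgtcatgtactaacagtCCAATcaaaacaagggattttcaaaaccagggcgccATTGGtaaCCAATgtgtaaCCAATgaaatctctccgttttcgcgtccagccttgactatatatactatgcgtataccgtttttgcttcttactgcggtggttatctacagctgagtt
Gen1/Smc6, chr12:11265802-11265885: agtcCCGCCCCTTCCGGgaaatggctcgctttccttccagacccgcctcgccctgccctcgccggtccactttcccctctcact
Polr2l/Tspan4, chr7:141475133-141475239: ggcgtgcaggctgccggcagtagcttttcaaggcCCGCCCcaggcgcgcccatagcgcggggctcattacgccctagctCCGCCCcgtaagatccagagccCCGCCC

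The Mrps12/Sars2 stretch carried 4 CCAAT boxes and 1 SP site within 171 bases, and the histone stretch carried 4 CCAAT boxes and 1 AP-1 match within 278. The Gen1/Smc6 stretch held an SP site directly followed by an ETS site in 84 bases, and the Polr2l/Tspan4 stretch held 3 SP sites in 107. GC content ran from 40.3% between the histone genes to 71.4% between Ostf1 and Nmrk1.

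Nearly every head-to-head pair was open in MSCs. The annotation held 735 such pairs with 1450 genes on the autosomes, of 20807 autosomal protein-coding genes. Both starts lay in 1 peak for 699 pairs (95.1%), in 2 peaks for 1 pair and outside any peak for 28 pairs, and 7 pairs had a single start in a peak. Among genes in pairs 95.7% had their start in a peak, against 61.6% of the 19357 genes outside them. The 678 peaks held the starts of 1404 genes. In 636 of them there were exactly 2 starts, in 42 there were 3 or more, up to 5, and 21 peaks held more than 1 pair. The peak caller placed all 678 in both conditions.

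The 28 pairs with no peak over either start are named in part here, after their values were seen. Among them were Kirrel2/Nphs1, of which Nphs1 encodes the slit diaphragm protein nephrin of kidney podocytes, Smyd1/Cd8b1, which pairs a muscle methyltransferase with a T cell co-receptor chain, and Bhmt2/Dmgdh, enzymes of methyl group metabolism. Widely expressed genes were there too, as in Rnf151/Rps2, with a ribosomal protein gene, Slc27a5/Trim28, with a transcriptional corepressor, and Pcdh12/Rnf14. The head-to-head histone pairs Hist1h2bq/Hist1h2ao, Hist1h2ap/Hist1h2br and the testis pair Hist1h2ba/Hist1h2aa, also had no peak. Histone genes have near-identical copies, so reads from them may not be placed uniquely, which was not tested.

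The starts of a member pair lay a median of 123 bp apart, with quartiles of 64 and 231.75 bp and a range of 0 to 987 bp. Bidirectional peaks were 2700 bp wide at the median and had a median mean value of 120, compared with 2500 bp and 81.5 for all one-gene promoter peaks and 1000 bp and 14.3 for all peaks. Per kb of width, the medians were 41.4, 28.6 and 13.4. One-gene peaks that had a noncoding gene start on the other strand within 1 kb (1223 of 10409) were wider than both, at 2900 bp, but lay between them in value, at 108 and 34.1 per kb. The other 9186 stood at 2400 bp, 78.3 and 27.8 per kb. The bidirectional peaks were thus wider and stronger at the median than one-gene promoter peaks, and the matched peaks were set to their level, at 2700 bp and 120.

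The peaks were also placed differently over their genes. A bidirectional peak reached a median of 1162 bp past the minus-strand start and 1201 bp past the plus-strand start, that is, about equally into both genes. A matched one-gene peak reached 1554 bp downstream of its start and 990 bp upstream. The midpoint between the paired starts lay a median of 9.39% of the width from the peak centre, whereas the start in a matched peak lay 14.2% from it.

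In the values as deposited, accessibility of the bidirectional promoters was lower in normoxia. The size of this difference depended on the scaling, as given below. The median deposited value was 151 and 158 under hypoxia against 81.3 and 94.9 under normoxia. Both normoxia medians thus lay below both hypoxia medians, and the median ratio of normoxia to hypoxia was 0.568. Of the 678 peaks, 676 were lower in normoxia as deposited. In 669 (98.7%) the 2 normoxia values were both under the 2 hypoxia values, against 59.5% of all peaks. The same held for 671 of the 678 matched peaks (99.0%) and 9545 of the 10409 one-gene peaks (91.7%), so it was no trait of bidirectional peaks alone. No member and no matched peak had both normoxia libraries above both hypoxia libraries, against 6.94% of all peaks. The bidirectional peaks held 1.23% and 1.29% of the library total in hypoxia and 0.640% and 0.766% in normoxia. Of the reads within autosomal peaks they held 2.54% and 2.46% in hypoxia against 2.09% and 2.21% in normoxia. The deposited values of all peaks were also lower in normoxia, with a median ratio of 0.736.

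**Figure D1:**
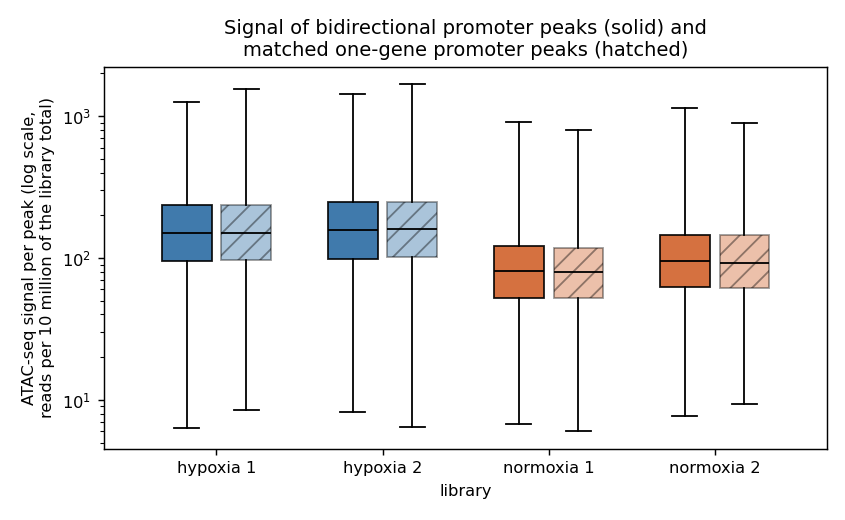
Signal per peak in each library for the 678 bidirectional promoter peaks (solid boxes) and the 678 matched one-gene promoter peaks (hatched boxes), on a log scale in reads per 10000000 of the library total. Boxes run from the lower to the upper quartile with the median as a line, and whiskers reach the lowest and highest peak. Both kinds of peak sit lower in both normoxia libraries, with bidirectional medians of 81.3 and 94.9 against 151 and 158.

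For the test, values were divided by relative log expression (RLE) size factors, which brought the median of all peaks to a log2 fold change of -0.0040 between normoxia and hypoxia. Unless given as deposited, each log2 fold change below compares normoxia with hypoxia after this scaling, on the log2(value + 1) scale. After scaling, the median log2 value of the bidirectional peaks was 7.06 and 7.02 in hypoxia against 6.66 and 6.76 in normoxia, a difference of -0.33 with a pooled SD of 0.051. The difference was larger than the spread between libraries, but an exact two-sided permutation test of 2 against 2 libraries gave p = 0.333, the smallest it can give. The median log2 fold change over members was -0.34, and the quartiles were -0.48 and -0.20. In limma, fitted to all peaks with Benjamini-Hochberg adjustment, 194 of 678 bidirectional peaks (28.6%) were lower in normoxia at a false discovery rate (FDR) under 0.01 and 0 were higher. Among all peaks 4.57% were called lower and 1.77% higher. At an unadjusted p under 0.05 in limma, 440 members were lower and 2 were higher, against 476 and 1 of the matched peaks. Of all 128055 peaks, 21576 were lower and 16023 higher at this level. The edgeR test on the recovered reads called 226 members lower and 0 higher, against 5.70% and 2.54% of all peaks. After scaling, no called member changed by over 2-fold.

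The count depended strongly on the scaling. Without scaling 585 members were called lower and 0 higher. When libraries were brought to equal totals over peaks 15 were called lower and 7 higher, after quantile normalization 5 and 3, and after cyclic loess 6 and 7. Among all peaks, the shares called lower and higher were 24.0% and 0.391% without scaling and 0.842% and 6.87% with equal totals. They were 0.720% and 0.905% after quantile normalization and 1.31% and 1.42% after cyclic loess. The excess of lower calls among members was thus not seen under the last 2 scalings. The median log2 fold change over members also depended on the scaling. It was -0.34 after RLE scaling and -0.82 without scaling. With equal totals it was -0.055, after quantile normalization -0.064 and after cyclic loess -0.056. Without hypoxia 1 or without hypoxia 2, 0 members and 0 of all peaks passed the FDR, although 264 and 340 members were lower at an unadjusted p under 0.05.

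Matched one-gene promoter peaks were lower in normoxia by a similar amount. Of the 678 matched peaks, 219 (32.3%) were called lower and 0 (0%) higher, with a median log2 fold change of -0.37. Their median deposited value was 150 and 161 in hypoxia against 79.3 and 92.6 in normoxia, with a median ratio of 0.557. The bidirectional median minus the matched median was 0.0034 and -0.023 on the log2 scale in hypoxia and 0.037 and 0.036 in normoxia. The shift between conditions was 0.046 with a pooled SD of 0.013, so both normoxia libraries lay above both hypoxia libraries (exact two-sided permutation test, p = 0.333, the smallest possible). As a separate measure, which the permutation test did not cover, the median log2 fold change of bidirectional peaks was 0.027 above that of the matched peaks. The sign of this small difference rested on matching width as well as value, because matching on mean value alone gave -0.0079 and no matching gave -0.064.

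Without matching, the bidirectional peaks had the larger share called lower. All one-gene promoter peaks had a median log2 fold change of -0.28, and 19.4% of them were called lower and 0.269% higher. Those with a noncoding start on the other strand gave -0.32, with 323 of 1223 called lower (26.4%), and those without gave -0.27, with 1698 of 9186 (18.5%). The share called rose with the strength of the peak in both kinds. In the lowest, middle and highest 226 bidirectional peaks by mean value, 15, 53 and 126 were called lower (6.64%, 23.5% and 55.8%), with median log2 fold changes of -0.22, -0.35 and -0.43. Matched peaks in the same ranges gave 21 of 225, 64 of 226 and 134 of 227, with -0.27, -0.39 and -0.44.

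**Figure D2:**
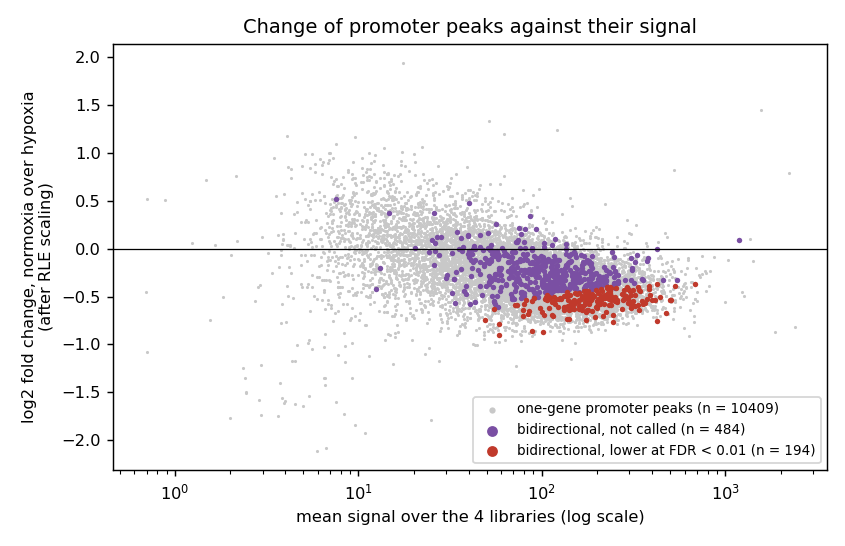
Log2 fold change of each promoter peak, normoxia over hypoxia after RLE scaling, against its mean deposited value over the 4 libraries on a log scale. Grey points are the 10409 one-gene promoter peaks, purple points the 484 bidirectional peaks that were not called and red points the 194 called lower by limma. Bidirectional peaks lie inside the cloud of one-gene peaks, mostly below 0 and towards its stronger end.

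**Figure D3:**
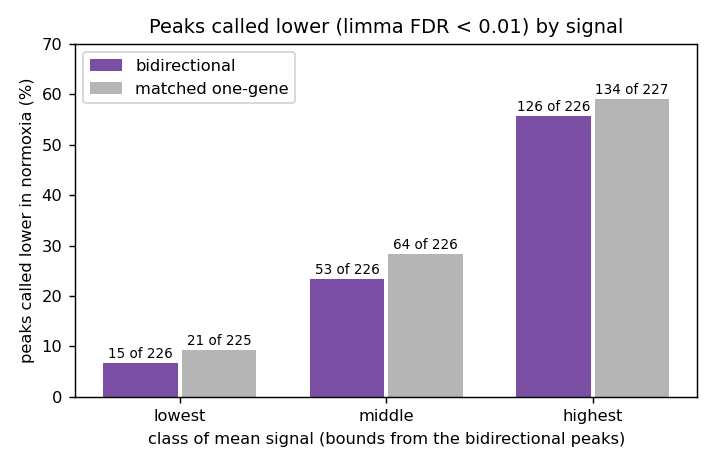
Percent of peaks called lower in normoxia (limma FDR under 0.01) in 3 classes of mean value, whose bounds divide the bidirectional peaks equally, for bidirectional (purple) and matched one-gene peaks (grey), with counts above the bars. The share climbs from 6.64% to 55.8% in bidirectional peaks, and the grey bar is the taller one in each class.

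Pairs with starts further apart had stronger peaks and were called more often. Among 290 peaks with starts under 100 bp apart, 71 were called lower (24.5%), with a median log2 fold change of -0.33 and a median mean value of 94.8. Among 272 peaks at 100 to 299 bp, 78 were called (28.7%), with -0.34 and 140. Among 116 peaks at 300 to 1000 bp, 45 were called (38.8%), with -0.39 and 183. Distance, value and width moved together here, and the part of each in the result was not tested. Peaks with exactly 2 gene starts and peaks with 3 or more had nearly the same share called, 182 of 636 (28.6%) and 12 of 42 (28.6%).

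Among 16 well-known divergent pairs, 7 were members. The other 9, among them Hspd1/Hspe1, Col4a1/Col4a2, Surf1/Surf2, Tk1/Afmid, Ppat/Paics, Tap1/Psmb9, Fen1/Tmem258 and Sirt3/Psmd13, had annotated starts that overlapped by 21 to 341 bp and so were no head-to-head pairs under the rule. Brca1/Nbr1, which pairs a homologous recombination gene with an autophagy receptor, had values of 175 and 214 in hypoxia against 141 and 124 in normoxia. The groups did not overlap, but the log2 fold change after scaling was only -0.07 ± 0.12 (SE) and did not pass the test (limma FDR 0.75). Wrap53/Trp53, the telomerase factor and p53, gave 178 and 176 in hypoxia against 127 and 121 in normoxia, with a log2 fold change of -0.03. Mrps12/Sars2, a mitochondrial ribosomal protein and the mitochondrial seryl-tRNA synthetase, gave 228 and 226 in hypoxia against 145 and 141 in normoxia, with -0.19. The log2 fold changes of these 3 pairs turned positive under equal totals, quantile normalization and cyclic loess.

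Mcm4/Prkdc, a subunit of the replicative helicase and the DNA-dependent protein kinase, was called lower, with 246 and 250 in hypoxia against 107 and 145 in normoxia (log2 fold change -0.51, limma FDR 0.0032). Pdcd10/Serpini1, which pairs a cerebral cavernous malformation gene with neuroserpin, was called lower at 459 and 498 against 188 and 281 (-0.58, FDR 0.00058). Atm/Npat, the DNA damage kinase and an activator of histone genes, gave 297 and 282 against 140 and 181 (-0.38, FDR 0.019). Gart/Son, a purine synthesis enzyme and a splicing factor, gave 258 and 258 against 133 and 149 (-0.39, FDR 0.013). These last pairs, Atm/Npat and Gart/Son, missed the FDR of 0.01 although their groups lay far apart.

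The 5 called members with the lowest p were Aasdhppt/Kbtbd3, Zfp91/Lpxn, Ostf1/Nmrk1, Hist1h2bl/Hist1h2ai and Gen1/Smc6. Aasdhppt, which attaches the phosphopantetheine arm to acyl carrier proteins, and Kbtbd3 shared a 2000-bp peak on chr9:4308501-4310500 with values of 602 and 583 in hypoxia against 218 and 289 in normoxia. Its log2 fold change was -0.76 ± 0.099 (SE, limma FDR 6.4e-06), and at 212 per kb it was also the densest bidirectional peak. Zfp91/Lpxn, a zinc finger ubiquitin ligase and the adaptor leupaxin, gave 626 and 674 in hypoxia against 256 and 333 in normoxia (-0.68). Ostf1/Nmrk1, an osteoclast stimulating factor and a nicotinamide riboside kinase, gave 334 and 352 in hypoxia against 130 and 161 in normoxia (-0.76). In each of them both normoxia values lay below both hypoxia values, which the rule for naming them required.

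Gen1/Smc6, a Holliday junction resolvase and a subunit of the SMC5/6 complex, gave 344 and 336 in hypoxia against 132 and 171 in normoxia (log2 fold change -0.70). Hist1h2bl/Hist1h2ai, core histone genes whose peak also held Hist1h3h, gave 144 and 147 in hypoxia against 49.8 and 64.7 in normoxia (-0.87). Near-identical histone copies may share reads with this peak, which was not tested. The other dense members, Zranb3/R3hdm1 and Fbh1/Ankrd16, each with a helicase gene of replication stress (Zranb3 and Fbh1), reached 147 and 136 per kb and were called lower at -0.54 and -0.64.

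The strongest bidirectional peaks by value were broad. Hjurp/Trpm8, the chaperone of the centromeric histone CENP-A and a cold-sensing channel, lay in a 21400-bp peak with 1254 and 1428 in hypoxia against 915 and 1141 in normoxia. Its log2 fold change was -0.39 as deposited and 0.09 after RLE scaling (limma FDR 0.45), so its sign depended on the scaling. Polr2l/Tspan4, a subunit shared by the RNA polymerases and a tetraspanin, lay in a 20800-bp peak that also held the start of Cd151. It gave 868 and 890 against 441 and 544 and was called lower (-0.37, FDR 0.0032), although cyclic loess turned its sign. Cdca2/Kctd9, a mitotic phosphatase partner and a potassium channel domain protein, gave 679 and 712 against 366 and 434 (-0.32, FDR 0.010), just short of the threshold.

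Among members with a mean value of at least 10, the highest log2 fold changes came from weak peaks, and none was called under RLE scaling. Lsr/Fam187b, of which Lsr encodes a lipoprotein receptor of tricellular junctions, gave 37.9 and 42.2 in hypoxia against 39.0 and 41.4 in normoxia (log2 fold change 0.47, limma FDR 0.051), and it was called higher under equal totals (0.76). Vps53/Fam57a, of which Vps53 serves vesicle return to the Golgi, gave 26.2 and 26.5 against 20.6 and 29.7 (0.37, FDR 0.22). Tssk3/Fam229a, of which Tssk3 is a testis kinase, gave 15.2 and 14.3 against 10.1 and 19.02 (0.37, FDR 0.37). Their groups overlapped as deposited, where the log2 fold changes were 0.0073, -0.087 and -0.077. The other members whose groups overlapped were Col4a4/Col4a3, Eme2/Mrps34, Rad54l/Pomgnt1, Polr3a/Rps24, Lrrc46/Mrpl10 and Tatdn3/Nsl1, named because these 9 were the exceptions.

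**Figure D4:**
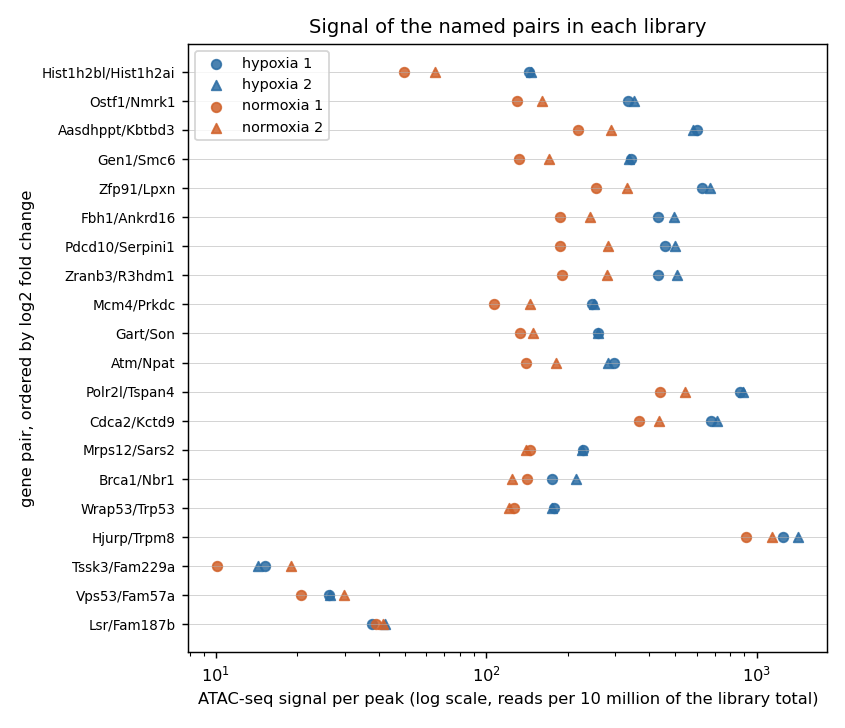
Deposited signal of the named gene pairs in each library, on a log scale in reads per 10000000 of the library total, with pairs ordered from the most lowered at the top by log2 fold change after RLE scaling. Blue marks are hypoxia and orange marks normoxia, with circles for library 1 and triangles for library 2. The blue marks lie right of the orange ones in every pair but Lsr/Fam187b, Vps53/Fam57a and Tssk3/Fam229a at the bottom.

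The share of genes with a bidirectional promoter peak differed widely between gene groups. Gene names were set against 14 lists, and 6.74% of all autosomal protein-coding gene names had their start in a bidirectional peak. The share was 27 of 100 genes for DNA repair and replication, 18 of 78 for mitochondrial ribosomal proteins, 22 of 94 for oxidative phosphorylation, 24 of 67 for histones and 18 of 121 for chaperones and the proteasome. It was 6 of 47 for the cell cycle, 5 of 37 for aminoacyl-tRNA synthetases, 8 of 79 for cytosolic ribosomal proteins, 5 of 26 for acetyl-CoA and citrate genes, 20 of 415 for zinc finger genes and 2 of 42 for collagens. It was 0 of 27 for osteogenic genes, 0 of 13 for adipogenic genes and 0 of 30 for hypoxia response genes. These last lists are short, and at a share of 6.74% few of their genes would be expected. Whether the counts of 0 reflect a depletion was not tested. Lists of this kind share pairs and were compared by count alone.

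For comparison with the lists below, 28.6% of all 678 members and 4.57% of all peaks were called lower, with medians of -0.34 and -0.0040. DNA repair and replication genes lay in 26 bidirectional peaks, of which 9 were called lower (34.6%), with a median log2 fold change of -0.36, near the values of all members. Wrn/Purg, with the Werner syndrome helicase, gave 181 and 178 in hypoxia against 77.2 and 90.1 in normoxia (-0.62). Rpa3/Umad1, with a subunit of the single-strand binding protein RPA, gave 225 and 261 against 100 and 137 (-0.57). Osgep/Apex1, with the main abasic site nuclease, gave 148 and 171 against 68.6 and 84.8 (-0.58). Cell cycle genes lay in 6 peaks, 1 of them called, namely Ift80/Smc4 with a condensin subunit, at 301 and 343 against 141 and 181. Under equal totals and quantile normalization none of these peaks was called, and under cyclic loess 1 repair peak was called higher.

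Chaperone and proteasome genes lay in 16 peaks, 7 of them called lower (43.8%, against 28.6% of all members), with a median of -0.43. Hsp90b1/Ttc41, with the chaperone of the endoplasmic reticulum GRP94, gave 527 and 584 in hypoxia against 235 and 318 in normoxia (-0.54). Tecr/Dnajb1, with an HSP40 co-chaperone, gave 656 and 684 against 310 and 355 (-0.53). Aminoacyl-tRNA synthetase genes lay in 5 peaks, 1 of them called, S100pbp/Yars, at 134 and 161 against 68.2 and 79.8. None of these peaks was called under equal totals, quantile normalization or cyclic loess.

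Mitochondrial ribosomal protein genes lay in 18 peaks with 4 called lower (22.2%), and oxidative phosphorylation genes in 22 with 4 called lower (18.2%). Their medians were -0.29 and -0.36. Both shares lay under the 28.6% of all members. Mrpl50/Zfp189 gave 283 and 310 in hypoxia against 111 and 153 in normoxia (-0.71), the lowest value of the ribosomal list. Fam126b/Ndufb3, with a subunit of complex I, gave 67.6 and 70.4 against 26.99 and 31.7 (-0.74). The calls depended on the scaling, with 1 lower and 1 higher for the mitochondrial ribosomal list under equal totals and 0 lower and 1 higher under both quantile normalization and cyclic loess. For oxidative phosphorylation 0 were lower under these 3 scalings and 1 was higher under equal totals. Cytosolic ribosomal protein genes lay in 8 peaks, of which 0 were called by limma, and their median of -0.18 turned positive under equal totals (0.11), quantile normalization (0.037) and cyclic loess (0.053). The peak of Med22/Rpl7a, which also held the starts of Surf1 and Surf2, had 346 and 316 against 184 and 193. Genes of acetyl-CoA and citrate metabolism lay in 5 peaks, with Idh1/Pikfyve called lower at 195 and 217 against 85.8 and 105. Of these, Pdhx and Acaca had log2 fold changes of -0.42 and -0.40 and were not called.

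Histone genes gave 6 of 9 peaks called lower (66.7%, against 28.6% of all members) and the lowest list median under RLE scaling, -0.56. Under equal totals, quantile normalization and cyclic loess 2 of 9 were called lower and the median was -0.27, -0.24 and -0.24, in the latter 2 no longer the lowest of the lists. Hist1h2ak/Hist1h2bn gave 113 and 142 in hypoxia against 50.6 and 49.1 in normoxia (-0.86), and Hist1h2ag/Hist1h2bj gave 234 and 243 against 107 and 109 (-0.66). Zinc finger genes gave 8 of 18 called lower (44.4%) with a median of -0.39. Under the same 3 scalings 4, 1 and 2 were called lower, with medians of -0.10, -0.16 and -0.13. Zfp942/Zfp943 had the lowest log2 fold change of all members (-0.90), at 92.4 and 77.2 against 30.7 and 33.4. Both families have close paralogs, so some of their reads may be misplaced, which was not tested. Collagen genes had the single peak of Col4a4/Col4a3, basement membrane chains, which was weak, with 6.37 and 8.16 in hypoxia against 6.75 and 9.01 in normoxia.

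A few calls were made under each scaling tried, and they are named here after their values were seen. Hist1h2bl/Hist1h2ai, Hist1h2ak/Hist1h2bn, Zfp942/Zfp943 and Ostf1/Nmrk1 were called lower by limma as deposited and under RLE scaling, equal totals, quantile normalization and cyclic loess. Like all others, these calls were lost without either hypoxia library. Hjurp/Trpm8, Eme2/Mrps34 and Sqstm1/Mgat4b, the last with the autophagy receptor p62, were called higher under the latter 3 scalings. Their deposited group means were lower in normoxia, with 477 and 517 in hypoxia against 334 and 377 in normoxia for Sqstm1/Mgat4b and 87.1 and 93.8 against 74.6 and 91.1 for Eme2/Mrps34. These 3 peaks were 21400, 6800 and 23000 bp wide.

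The sequence around the starts was close to that of one-gene promoters in GC content and apart from it in the ETS motif. A window of 500 bases was centred on the midpoint of the paired starts, or on the start of a one-gene promoter, in GRCm38. GC content was 62.8% at the median in bidirectional, 63.2% in matched and 62.4% in all one-gene windows, and the CpG observed over expected ratio was 0.843, 0.823 and 0.764. Exact motifs were searched on both strands. Those of activators of housekeeping promoters were the ETS motif CCGGAAG, the NRF1 motif GCGCATGC and the NF-Y box CCAAT. The GC box GGGCGG binds SP and KLF factors, while AAGATGGC binds YY1 and TCGCGAGA binds ZBTB33. Of the signal-dependent kind were the CREB and ATF motif TGACGTCA, the MYC and USF motif CACGTG and, for the hypoxia-inducible factors (HIF), ACGTGC. The AP-1 motif was TGANTCA, and the TATA box was searched as TATAAA. The HIF and MYC motifs share letters and can match the same bases.

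The ETS motif was in 35.4% of bidirectional windows, 22.7% of matched and 18.5% of all one-gene windows. The YY1 motif was in 11.4%, 6.78% and 5.43%. Gaps to the matched windows were smaller for CCAAT, with 52.1%, 49.0% and 44.6%, and for GGGCGG, with 80.1%, 76.5% and 74.0%. TATAAA had the reverse order, with 6.05%, 8.41% and 9.59%, and the HIF motif was in 15.6%, 13.6% and 12.6%. A bidirectional window was centred between paired starts and a one-gene window on a single start. The part of this in the differences between the shares was not tested. These shares are a description with no test, and a match is not a bound site.

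**Figure D5:**
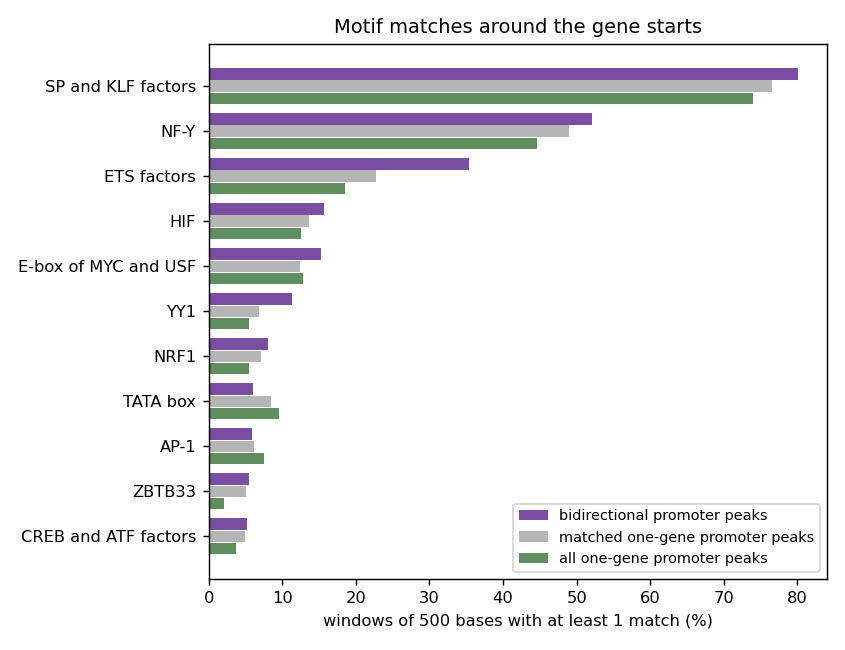
Percent of 500-base windows with at least 1 match to each motif, on either strand, in the 678 bidirectional (purple), 678 matched one-gene (grey) and 10409 one-gene promoter peaks (green). The widest gap is that of the ETS motif, at 35.4% against 22.7% and 18.5%, and for the TATA box the bidirectional bar is the shortest.

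Bidirectional peaks with a CCAAT box had the larger share called lower. Of the 353 with CCAAT, 125 were called lower (35.4%), with a median log2 fold change of -0.37 and a median mean value of 140. Of the 325 without it, 69 were called (21.2%), with -0.31 and 104. This gap was the widest of the 11 motifs searched. In matched peaks the shares were 109 of 332 (32.8%) and 110 of 346 (31.8%), with median mean values of 135 and 112. Peaks with CCAAT were thus the stronger ones in both kinds, while the shares called differed among members and were close in matched peaks. The part of peak strength in the difference among members was not tested. With and without the ETS motif, 64 of 240 (26.7%) and 130 of 438 (29.7%) were called, and with and without the HIF motif 32 of 106 (30.2%) and 162 of 572 (28.3%).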

How the data were processed

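ATAC-seq was done in 4 libraries of mouse bone MSCs. The authors aligned reads to mm10 with bowtie2, removed duplicates with Picard and called 1 peak set over both groups with chromstaR. The deposited values are a signal the authors call RPKM, but they are not divided by width: 100% of them were whole multiples (within 0.001 reads) of 1 read scaled to 10000000 of the library total. Whether these reads are fragments or read positions is not known. From these values, limma 3.58.1 in R 4.3.3 (lmFit, eBayes with trend and robust) was fitted to log2(value + 1) after RLE size factors (1.13, 1.23, 0.810 and 0.886) over all 128055 peaks, two-sided, at an FDR under 0.01. edgeR 4.0.16 on the recovered reads was an alternative. The fits were tested on simulated data. Matching was an optimal one-to-one assignment on log2 mean value and log2 width, each divided by its SD. GENCODE M21 gave 1 start per gene. Named pairs were well-known pairs, the called members with the lowest p, the least lowered members with a mean value of at least 10, the strongest members, and up to 4 members per gene list by lowest p. The members, lists and rules were chosen with earlier results of these data known. Alternatives covered scaling, pseudocount, filters, test, start sites, distance, width, matching and each library left out. Some genes of the lists, pairs and markers are not reported here.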

Additional observations from a re-analysis of the deposited data

How the results depend on the processing

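The count of 194 bidirectional peaks called lower became 585 with values as deposited, 15 with equal totals, 5 after quantile normalization, 6 after cyclic loess, 326 at an FDR under 0.05, 305 with overlapping 5′ ends added (1073 peaks) and 0 in eBayes without trend, with or without robust, where 171 and 175 were lower at an unadjusted p under 0.05. With 1 library left out it ran from 0 to 286: 0 without hypoxia 1 or hypoxia 2, 140 without normoxia 1 and 286 without normoxia 2. The count of 0 called higher became 7 with equal totals, 3 after quantile normalization, 7 after cyclic loess, and 1 with the starts of all transcripts or with overlapping 5′ ends, and ran from 0 to 1 with 1 library left out. The median log2 fold change of -0.34 became -0.82 as deposited, -0.055 with equal totals, -0.064 after quantile normalization and -0.056 after cyclic loess, and ran from -0.40 to -0.29 with 1 library left out. The medians of all peaks moved to -0.44 as deposited and 0.26 with equal totals. The share of all peaks called lower moved from 4.57% to 24.0% as deposited and 0.842% with equal totals. It was 0.720% after quantile normalization and 1.31% after cyclic loess. The share called higher moved from 1.77% to 0.391%, 6.87%, 0.905% and 1.42% in the same order. The difference of 0.027 from matched peaks became -0.0079 with matching on mean value alone and -0.064 with no matching, ran from 0.013 to 0.035 with 1 library left out, and lay between 0.021 and 0.038 under every other alternative tried. The labels do not say that a replicate number marks a shared sort or mouse, although cells were divided between the conditions after sorting, and the deviations of same-numbered libraries correlated at 0.011 over all peaks and 0.0995 over members. With the replicate number as a block, 245 were called lower, all 194 among them, and 0 higher, against 6.61% and 3.05% of all peaks. Atm/Npat, Gart/Son and Cdca2/Kctd9 then passed the threshold that they missed without the block.

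Of the single pairs, Brca1/Nbr1 turned positive with equal totals (0.22), quantile normalization (0.27) and cyclic loess (0.27), and its log2 fold change ran from -0.22 to 0.088 with 1 library left out. Wrap53/Trp53 turned positive with equal totals (0.26), quantile normalization (0.30) and cyclic loess (0.29), and ran from -0.13 to 0.069 with 1 library left out. The sign also changed for Mrps12/Sars2 with equal totals (0.10), quantile normalization (0.17) and cyclic loess (0.17), for Atm/Npat (0.0022) and Polr2l/Tspan4 (0.18) after cyclic loess, and for Cdca2/Kctd9 after quantile normalization (0.057) and cyclic loess (0.19). It turned negative as deposited for Vps53/Fam57a (-0.087), Tssk3/Fam229a (-0.077) and Hjurp/Trpm8 (-0.39). The cause of these changes was not tested. The weakest members rest on 18 to 24 reads per library.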
